A study of Homo sapiens with 13 samples.

Results

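The regions described here are the S9.6 peaks of chromosome 19, that is, all peaks whose first column names chr19 in 3 deposited peak lists. There are 246 siCtrl, 973 siREXO4 and 1360 siRNaseH1 peaks, 2579 of the 39356 peaks in the series. The lists come from DRIP-seq, an immunoprecipitation (IP) of sonicated genomic DNA with S9.6, an antibody to DNA-RNA hybrids. The cells were U2OS, a human osteosarcoma line that the labels give as wild type, transfected with a control siRNA (siCtrl), an siRNA against REXO4 (siREXO4) or an siRNA against RNaseH1 (siRNaseH1). Each transfection has 3 IP libraries and 1 input, and siCtrl has 1 IgG library, 13 samples in all. Peaks were called by the authors on the 3 IP libraries of a transfection merged together, so each value below is 1 pooled value with no SD, and no test between transfections was possible. The labels do not state the time after transfection. Signals of the input and IgG libraries are not analysed here.

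DNA-RNA hybrids form when a nascent transcript pairs with its template strand, and with the displaced DNA strand they make an R-loop. They are known to occur at active genes, above all near starts of transcription in CpG-rich DNA. RNaseH1 degrades the RNA strand of a hybrid, and REXO4 belongs to the REXO family of exonucleases. Chromosome 19 is known as the most gene-dense human chromosome. Some of its stretches are crowded with housekeeping and signalling genes, and others hold clusters of C2H2 zinc finger genes, many of which encode KRAB repressors of transposable elements.

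The sequences that follow let a reader see what lay under a peak and what did not. They are RefSeq promoters on GRCh38.p14 (250 bases before to 50 after a listed start of transcription, 5′ to 3′), with each CG dinucleotide in capitals. The table holds promoters for 1185 of the 1410 protein-coding genes of the chromosome. The promoters of JUND (chr19:18281573-18281872, minus strand), ERF (chr19:42255079-42255378, minus) and CIRBP (chr19:1269082-1269381, plus) lay under a peak (an overlap of at least 1 bp) in all 3 lists, with 49, 41 and 37 CG dinucleotides.
JUND: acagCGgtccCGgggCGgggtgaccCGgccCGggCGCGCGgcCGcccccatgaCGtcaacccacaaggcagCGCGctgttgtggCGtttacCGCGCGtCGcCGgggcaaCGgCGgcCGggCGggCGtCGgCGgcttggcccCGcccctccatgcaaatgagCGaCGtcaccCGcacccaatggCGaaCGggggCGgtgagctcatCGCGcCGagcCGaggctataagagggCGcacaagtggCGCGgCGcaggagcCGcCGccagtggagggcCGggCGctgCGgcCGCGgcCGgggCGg
ERF: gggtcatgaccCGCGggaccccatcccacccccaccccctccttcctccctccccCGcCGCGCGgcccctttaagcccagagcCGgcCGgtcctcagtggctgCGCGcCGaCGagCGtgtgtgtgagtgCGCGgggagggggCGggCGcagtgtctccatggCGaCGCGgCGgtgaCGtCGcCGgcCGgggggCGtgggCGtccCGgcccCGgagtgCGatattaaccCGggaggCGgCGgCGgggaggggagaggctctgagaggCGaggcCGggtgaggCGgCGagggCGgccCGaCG
CIRBP: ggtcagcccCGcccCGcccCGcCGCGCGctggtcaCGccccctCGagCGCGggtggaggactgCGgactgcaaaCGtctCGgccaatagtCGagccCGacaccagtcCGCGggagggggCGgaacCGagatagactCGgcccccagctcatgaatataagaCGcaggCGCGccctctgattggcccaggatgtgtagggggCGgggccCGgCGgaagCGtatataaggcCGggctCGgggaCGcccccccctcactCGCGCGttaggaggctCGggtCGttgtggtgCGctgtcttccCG
The next are zinc finger genes. ZNF787 (chr19:56121246-56121545, minus) was under a peak in both knockdown lists and not in siCtrl, and ZNF146 (chr19:36214856-36215155, plus) in all 3 lists, with 32 and 24 CG dinucleotides. ZNF486 (chr19:20166964-20167263, plus) stands in a 1 Mb window without a peak in any list and has 10. These examples differ more than the medians, which were 23 for the 35 zinc finger promoters under a peak and 20 for the 250 under none.
ZNF787: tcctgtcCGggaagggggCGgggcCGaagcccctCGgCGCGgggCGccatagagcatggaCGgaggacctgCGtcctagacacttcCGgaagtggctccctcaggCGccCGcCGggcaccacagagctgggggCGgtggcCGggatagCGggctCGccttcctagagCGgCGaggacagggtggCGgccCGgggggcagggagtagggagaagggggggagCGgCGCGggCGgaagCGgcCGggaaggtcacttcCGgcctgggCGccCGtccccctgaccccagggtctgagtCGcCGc
ZNF146: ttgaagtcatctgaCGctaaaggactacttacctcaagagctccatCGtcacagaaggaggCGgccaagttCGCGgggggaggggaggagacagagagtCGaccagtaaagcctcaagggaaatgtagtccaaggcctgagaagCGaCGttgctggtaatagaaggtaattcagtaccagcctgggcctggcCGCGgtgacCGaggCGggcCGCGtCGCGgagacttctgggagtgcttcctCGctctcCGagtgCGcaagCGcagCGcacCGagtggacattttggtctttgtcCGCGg
ZNF486: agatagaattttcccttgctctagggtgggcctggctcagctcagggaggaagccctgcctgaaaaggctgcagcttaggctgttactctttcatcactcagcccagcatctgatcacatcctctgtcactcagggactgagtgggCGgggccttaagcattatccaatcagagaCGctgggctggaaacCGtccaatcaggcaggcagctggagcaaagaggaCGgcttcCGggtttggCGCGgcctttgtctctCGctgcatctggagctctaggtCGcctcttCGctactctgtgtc
KIR2DL4, a natural killer cell receptor gene of the leukocyte receptor region (chr19:54803360-54803659, plus), has 11 and was under no peak.
KIR2DL4: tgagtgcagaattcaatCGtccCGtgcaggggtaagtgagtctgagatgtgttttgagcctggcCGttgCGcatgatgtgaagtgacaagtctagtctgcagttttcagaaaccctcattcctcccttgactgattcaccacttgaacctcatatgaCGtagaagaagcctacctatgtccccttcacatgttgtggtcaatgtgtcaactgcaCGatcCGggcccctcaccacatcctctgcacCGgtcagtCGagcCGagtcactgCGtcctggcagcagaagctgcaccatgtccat

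The first question was how densely chromosome 19 is covered. It held 4.20 siCtrl peaks per Mb, 16.6 siREXO4 peaks and 23.2 siRNaseH1 peaks, against 1.48, 4.12 and 6.89 on the other chromosomes (1 to 22 and X). The ratio was 2.83 in siCtrl (95% interval 2.48 to 3.22), 4.03 in siREXO4 (3.77 to 4.30) and 3.37 in siRNaseH1 (3.18 to 3.56). All intervals on counts and shares reflect counting error alone. Among 23 chromosomes it ranked 1 in both knockdown lists and 2 in siCtrl, after chromosome 17. Chromosome 19 also has 24.1 protein-coding genes per Mb against 6.48 elsewhere, a ratio of 3.72. Per protein-coding gene, the density was below that elsewhere in siCtrl and siRNaseH1 and slightly above it in siREXO4. It was 0.174 peaks in siCtrl, 0.690 in siREXO4 and 0.965 in siRNaseH1, which ranked 20, 7 and 18 among the chromosomes. These were 0.762 (0.668 to 0.867), 1.08 (1.01 to 1.16) and 0.906 (0.857 to 0.957) times the value elsewhere.

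**Figure D1:**
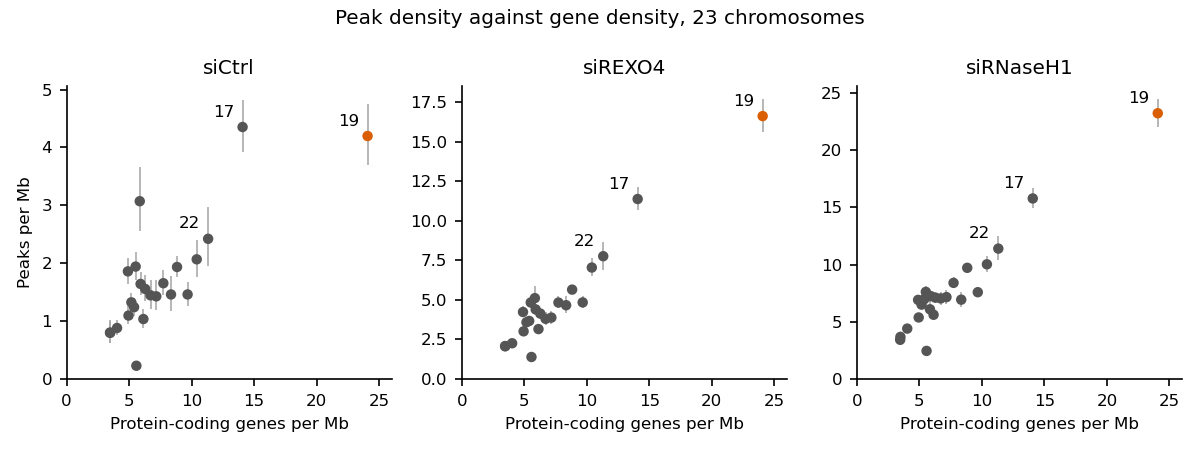
Peaks per Mb (y axis) against protein-coding genes per Mb (x axis) for chromosomes 1 to 22 and X, 1 panel per merged list, with vertical lines for 95% Poisson intervals of the counts. Chromosome 19, in orange at 24.1 genes per Mb, holds 4.20, 16.6 and 23.2 peaks per Mb, the most of any chromosome in both knockdown panels, while chromosome 17 is slightly higher in siCtrl (4.35).

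The knockdown lists were longer on this chromosome than elsewhere relative to siCtrl. On chromosome 19 the siREXO4 list was 3.96 times and the siRNaseH1 list 5.53 times the siCtrl number, against 2.78 and 4.65 times on the other chromosomes. The siRNaseH1 list was 1.40 times the siREXO4 list here and 1.67 times elsewhere. The siCtrl peaks covered 109 kb of sequence, the siREXO4 peaks 588 kb and the siRNaseH1 peaks 848 kb. Peaks of the knockdown lists were also wider here, with a median of 461 bp in siREXO4 and 458 bp in siRNaseH1 against 377 and 391 bp elsewhere. The siCtrl medians were 350.5 and 335.5 bp. Of the gaps between neighbouring siRNaseH1 peaks, 58.4% were under 10 kb, against 21.2% in siCtrl. On the other chromosomes these shares were 45.9% and 15.3%. The caller's local background was higher on chromosome 19. At the summits it had a median of 2.14 (siCtrl), 2.34 (siREXO4) and 2.70 (siRNaseH1) fragments, against 1.67, 1.94 and 2.15 elsewhere. Its lowest values were 1.28, 1.41 and 1.36. They are taken here as the expected coverage over the genome, which is inferred from how MACS2 sets its background and not from a stated depth. The part that background has in the number of calls was not tested.

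Along the chromosome the peaks followed the genes. In 59 windows of 1 Mb, numbered from the short-arm end, the rank correlation (Spearman) of peak number with the number of protein-coding genes was 0.54 for siCtrl, 0.69 for siREXO4 and 0.73 for siRNaseH1. With zinc finger genes left out of the gene count it was 0.64, 0.77 and 0.76. Neighbouring windows are not independent, so these values describe the map and carry no p. The lists agreed on where the dense windows were, with a rank correlation of 0.93 between the knockdown lists and of 0.83 and 0.81 between siCtrl and each of them. The 10 densest windows of each list, 17.1% of the length, held 41.5% of siCtrl, 39.8% of siREXO4 and 36.8% of siRNaseH1 peaks.

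Each list had its own densest window, all of them rich in genes. The siCtrl list was densest in window 39 (chr19:38000001-39000000), with 15 peaks. There HNRNPL, which encodes a splicing regulator, had the highest fold enrichment (14.1). Fold enrichment is the authors' ratio of coverage at the summit to local background, taken here to have the same constant added to each. The siREXO4 list was densest in window 2 (chr19:1000001-2000000), with 45 peaks led by CIRBP, a cold-inducible RNA-binding protein gene (60.6). Window 39 followed with 44, window 48 with 41 (led by ZC3H4, 28.6) and window 56 with 39 (led by ZNF581, 34.9). The siRNaseH1 list was densest in window 50 (chr19:49000001-50000000), with 66 peaks in a window of 55 protein-coding genes, the highest gene number of the chromosome. SCAF1, an SR-related splicing factor gene, led it (61.9). Windows 2 (54 peaks) and 19 (53 peaks, led by JUND) came next.

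The balance of the knockdown lists was compared between windows. Of all knockdown peaks of the chromosome, 41.7% were from siREXO4. In window 39 the share was 52.4% (44 against 40 peaks) and in window 56 it was 53.4% (39 against 34), and the Wilson intervals of both lay just above the chromosome's share, with lower bounds of 41.8% and 42.1%. It was lower, with intervals below the chromosome's share, in window 36 (12 against 36), window 58 (7 against 23) and window 27 (0 against 8). With 57 windows compared at the 95% level, some intervals miss the chromosome's share by chance alone, so these 5 windows are given as values only. The siREXO4 list had at least as many peaks as siRNaseH1 in 13 of the 57 windows. Windows 26 to 28, around the centromere, hold no protein-coding gene. They held 3, 8 and 5 peaks in siRNaseH1 and none in the other lists. Of the 5 in window 28, 3 lay within 2 kb of the non-coding gene LINC00662. Fold enrichment of these siRNaseH1 peaks ran from 2.21 to 8.06, and the lowest was at a local background of 14.8 fragments.

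**Figure D2:**
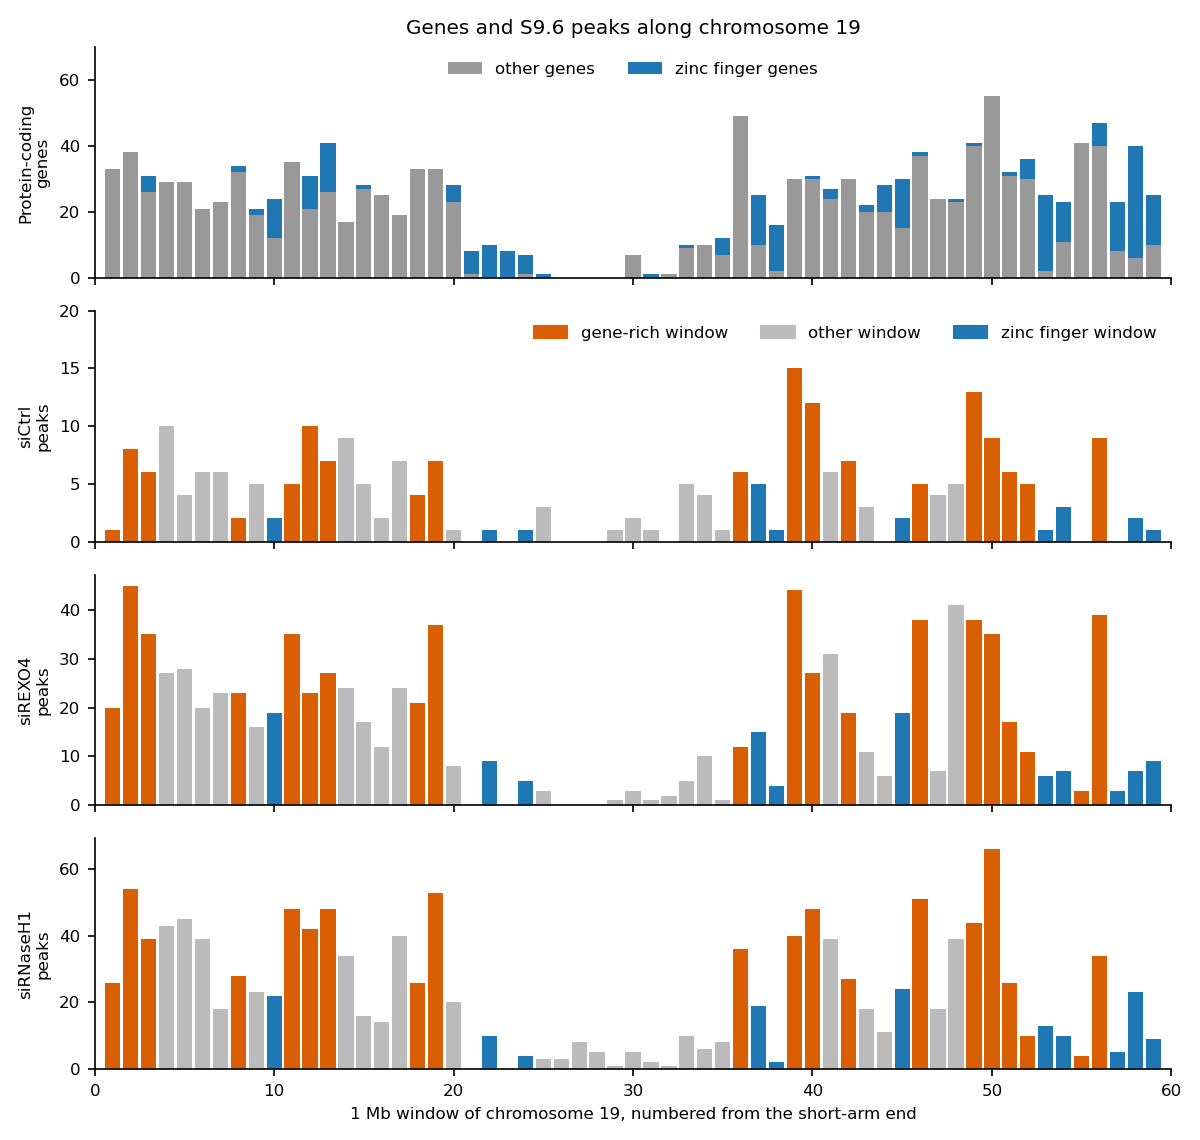
Protein-coding genes (top, zinc finger genes in blue) and peaks of each merged list (lower panels, coloured by class of window) in 59 windows of 1 Mb of chromosome 19, counted from the short-arm end. The tallest bars stand at window 39 in siCtrl (15), window 2 in siREXO4 (45) and window 50 in siRNaseH1 (66), while windows 21 and 23 hold none in any list and window 55 holds 0, 3 and 4 despite its 41 genes.

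Gene-rich windows were compared with zinc finger windows. A window was called zinc finger when at least 5 zinc finger genes made up at least 50% of its protein-coding genes, and gene-rich when it had 30 or more protein-coding genes and was not a zinc finger window. The 20 gene-rich windows (739 genes) held 137 siCtrl, 549 siREXO4 and 750 siRNaseH1 peaks, or 6.85, 27.5 and 37.5 per Mb. The 13 zinc finger windows (264 genes, 186 of them zinc finger) held 19, 103 and 141 peaks, or 1.51, 8.17 and 11.2 per Mb. The other 26 windows held 90, 321 and 469. Gene-rich windows were thus denser by 4.54 times in siCtrl (2.80 to 7.78), 3.36 times in siREXO4 (2.72 to 4.19) and 3.35 times in siRNaseH1 (2.80 to 4.04). Per protein-coding gene the ratio was smaller but still above 1 in each list, at 2.58 (1.59 to 4.41), 1.90 (1.54 to 2.37) and 1.90 (1.59 to 2.29). In 500 kb windows, with gene minimums scaled to that length, the siCtrl ratio per Mb was 8.78, and with a fold of at least 5 it was 2.83 (1.41 to 6.31). With the siREXO4 list limited to as many peaks of lowest p-value as siCtrl has, its ratio was 5.22.

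**Figure D3:**
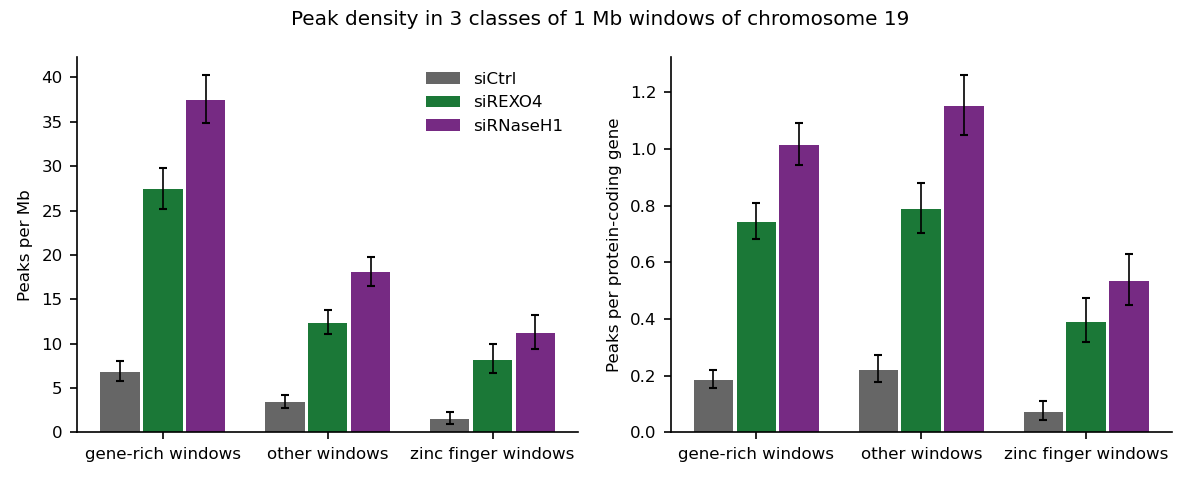
Peaks per Mb (left) and per protein-coding gene (right) in gene-rich (20), other (26) and zinc finger (13) windows, with 95% Poisson intervals, 1 bar per merged list. In siREXO4, for example, gene-rich windows reach 27.5 per Mb and zinc finger windows 8.17, and the gap narrows to 0.743 against 0.390 peaks per gene.

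The strongest peaks of the zinc finger windows had lower folds than those of gene-rich windows, which hold many more peaks. Their highest fold enrichments were 6.89 (siCtrl), 16.7 (siREXO4) and 25.1 (siRNaseH1), against 37.9, 85.01 and 250.004 in gene-rich windows. Median folds were 5.25, 4.56 and 5.09 in zinc finger windows and 4.64, 4.98 and 4.96 in gene-rich windows, so only in siREXO4 was the zinc finger median the lower. Several of the genes that led the zinc finger windows were not zinc finger genes. MYADM, which encodes a membrane protein, led siCtrl and siRNaseH1 and reached 16.02 in siREXO4. PPP2R1A, a scaffold subunit gene of protein phosphatase 2A, led siREXO4. Among zinc finger genes, ZNF708 (6.75) and ZNF121 (6.59) led siCtrl. ZNF146, at a locus that ZNF565 shares, had 5.77 in siCtrl, 13.4 in siREXO4 and 21.9 in siRNaseH1. Windows 21 and 23, with 8 protein-coding genes each, of which 7 and 8 are zinc finger genes, held no peak in any list. A count of 0 allows up to 3 expected peaks, as a one-sided limit.

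Zinc finger genes were then compared with the other genes of the chromosome. A gene held a peak when a peak overlapped it or the 2 kb on either side. In siCtrl, 174 of the 1410 protein-coding genes did (12.3%, against 12.0% of all protein-coding genes tested on chromosomes 1 to 22 and X). In siREXO4 it was 576 (40.9%, against 33.9%) and in siRNaseH1 612 (43.4%, against 39.4%). With a fold of at least 5 required, the siCtrl share was 5.18%. A further 683 genes (48.4%) held no peak in any list. Of 265 zinc finger genes, 16 held a siCtrl peak (6.04%, interval 3.75 to 9.58%), 58 a siREXO4 peak (21.9%, 17.3 to 27.2%) and 67 a siRNaseH1 peak (25.3%, 20.4 to 30.8%). Of the other 1145 genes, 158 (13.8%, 11.9 to 15.9%), 518 (45.2%, 42.4 to 48.1%) and 545 (47.6%, 44.7 to 50.5%) did. The zinc finger genes were the longer ones, with a median of 23.2 kb against 12.6 kb. Genes were classed by symbol, so the list includes ZFP36, whose product binds mRNA.

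The shares of zinc finger genes also differed with the class of window. In gene-rich windows 20 of 49 zinc finger genes held a siREXO4 peak (40.8%), against 31 of 186 in zinc finger windows (16.7%). For siRNaseH1 the shares were 36.7% and 20.97%. Within zinc finger windows, zinc finger genes and other genes differed little in siRNaseH1 (20.97% and 24.4%) and more in siREXO4 (16.7% and 30.8%). At promoters the gap within zinc finger windows, in percentage points, was similar in siREXO4 and wider in siRNaseH1. In siREXO4, 24.5% of 49 zinc finger promoters in gene-rich windows lay under a peak (interval 14.6 to 38.1%), close to 22.9% of 763 other promoters there (20.1 to 26.1%). In zinc finger windows 5.34% of 206 zinc finger promoters did (3.01 to 9.31%), against 19.5% of 77 promoters of other genes (12.2 to 29.7%). In siRNaseH1 the corresponding shares were 18.4% and 20.97% in gene-rich windows, and 5.83% and 20.8% in zinc finger windows. In siCtrl 40 promoters of the chromosome lay under a peak, too few for this split.

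**Figure D4:**
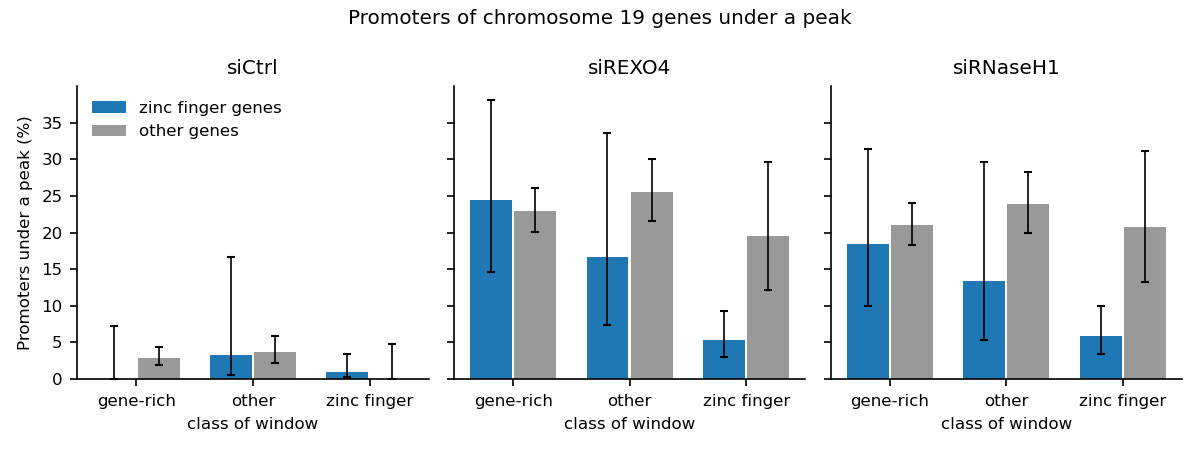
Percent of promoters under a peak in each class of window, for zinc finger genes (blue) and other genes (grey), with 95% Wilson intervals, 1 panel per merged list. In both knockdown panels the blue bar is lowest in zinc finger windows (5.34% and 5.83%), where the grey bars stay at 19.5% and 20.8%.

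Repeated sequence and base composition were measured beside these shares. The measure of repeats was chosen after seeing the data. Only 7 of the 206 zinc finger promoters in zinc finger windows shared a run of 50 or more bases with the promoter of another gene in the RefSeq table. Without them the siREXO4 share was 5.53% (3.11 to 9.63%), against 25.5% (15.3 to 39.5%) for zinc finger promoters without such a run in gene-rich windows. Leaving out so few promoters can move the share only a little, and the measure does not cover sequence outside promoters. The part of repeats in the gap was therefore not tested. No promoter of windows 21 and 23 had a shared run of this length. Of 44 promoters of other genes with a shared run, 0 lay under a peak in any list, and the Wilson interval reaches 8.03%. Of the 1207 without such a run, 3.07%, 24.4% and 22.7% lay under a siCtrl, siREXO4 and siRNaseH1 peak. No source used here says how reads that map to several places were treated. The median GC content was 59.5% for zinc finger promoters in zinc finger windows and 61% in gene-rich windows, with medians of 20 and 19 CG dinucleotides. Between 65 and 70% GC, 7 of 50 zinc finger promoters (14%) and 86 of 274 others (31.4%) lay under a siREXO4 peak. Between 60 and 65% GC it was 13 of 74 (17.6%) and 59 of 275 (21.5%), and in siRNaseH1 9.46% and 18.9%. Between 55 and 60% GC it was 4 of 92 (4.35%) and 33 of 197 (16.8%) in siREXO4. At 70% GC and over it was 3 of 22 (13.6%) and 110 of 318 (34.6%). Below 55% GC it was 1 of 47 (2.13%) and 7 of 187 (3.74%). The zinc finger share was the lower in each GC range of both knockdown lists. The intervals overlapped in every range of both lists except in siREXO4 between 55 and 60% GC (1.70 to 10.7% against 12.2 to 22.6%).

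Over all promoters of the chromosome, those richer in GC were more often under a peak. With 1536 promoters split by GC content into 4 groups of 384, the siREXO4 share was 6.51%, 16.9%, 27.6% and 33.1% from the lowest to the highest. For siRNaseH1 it was 7.81%, 15.9%, 22.7% and 31.5%, and for siCtrl 1.56%, 1.82%, 2.34% and 4.69%. Promoters under no peak had a median of 17 CG dinucleotides, and those under peaks of 1, 2 and 3 lists had 27, 29 and 31.5. The printed JUND, ERF and CIRBP promoters lie above the last of these medians, and ZNF486 and KIR2DL4 below the first. All 40 promoters under a siCtrl peak were also under a peak in both knockdown lists. Runs of GGGG or CCCC were no mark of these promoters, since 97.9% of all 1536 hold at least 1 of them.

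On chromosome 19 larger shares of siCtrl peaks had a knockdown counterpart than elsewhere, and the knockdown lists shared more with each other, while the shares of knockdown peaks with a siCtrl counterpart were near those elsewhere. Here and below, peaks that overlap by at least 1 bp are counted as shared. Of the 246 siCtrl peaks, 140 (56.9%, interval 50.7 to 62.9%) overlapped a siREXO4 peak and 144 (58.5%, 52.3 to 64.5%) a siRNaseH1 peak, against 40.8% and 45.5% on the other chromosomes. In both knockdown lists there were 120 (48.8%), and 82 (33.3%) overlapped neither. Of the 973 siREXO4 peaks, 604 (62.1%, 59.0 to 65.1%) overlapped a siRNaseH1 peak, against 53.5% elsewhere. In the other direction 585 of 1360 siRNaseH1 peaks (43.0%) overlapped a siREXO4 peak, against 31.9%. The higher density of peaks here was not allowed for in these shares. With each list limited to as many peaks of lowest p-value as siCtrl has, 27.2% of the chromosome's siCtrl peaks were in both knockdown lists.

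Most knockdown peaks had no siCtrl counterpart. These numbered 835 in siREXO4 (85.8%, against 85.5% over chromosomes 1 to 22 and X) and 1218 in siRNaseH1 (89.6%, against 90.3%), so the share was near that of the genome. Of the 835, 484 (58.0%, 54.6 to 61.3%) overlapped a siRNaseH1 peak, against 49.0% elsewhere. Both sets are defined by the same siCtrl list. Sharing was lower in zinc finger windows, where 33 of 94 such siREXO4 peaks overlapped a siRNaseH1 peak (35.1%, 26.2 to 45.2%), against 281 of 470 in gene-rich windows (59.8%, 55.3 to 64.1%). It was higher at high fold. When siREXO4 peaks were ranked by fold and split into 4 groups, 43.4% of the lowest group overlapped a siRNaseH1 peak and 89.3% of the highest. Merging overlapping peaks gave 1788 loci. Of these, 115 held peaks of all 3 lists, 448 of both knockdown lists only, 753 of siRNaseH1 only, 351 of siREXO4 only and 82 of siCtrl only. A siCtrl peak joined a siREXO4 peak alone at 18 loci and a siRNaseH1 peak alone at 21.

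Gene boundaries held a large part of the peaks. Of the summits, 48.4% in siCtrl, 59.3% in siREXO4 and 51.8% in siRNaseH1 lay within 2 kb of a boundary of an annotated gene, against 26.6%, 43.3% and 34.4% elsewhere. On this chromosome 24.8% of the sequence lies that near a boundary, against 11.3% elsewhere. Among siCtrl peaks present in all 3 lists the share was 69.2%, and among those in no other list it was 25.6%. Of the siREXO4 peaks shared with siRNaseH1 and without a siCtrl peak it was 66.5%. Summits within 2 kb of a listed start of transcription made up 27.6% of siCtrl, 39.3% of siREXO4 and 28.2% of siRNaseH1 peaks. Of these, 72.1%, 76.7% and 74.9% lay downstream of the start, and the median offset was 144.5, 166 and 176 bp downstream. The siREXO4 list thus had the largest share at starts. A further 186 siRNaseH1 summits (13.7%) were within 2 kb of the end of a protein-coding gene with a listed promoter and not near a listed start, against 88 in siREXO4 (9.04%).

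A few loci led all 3 lists. JUND, an AP-1 transcription factor gene, had a peak around its start with fold enrichments of 37.9 in siCtrl, 85.01 in siREXO4 and 250.004 in siRNaseH1, and widths of 1253, 2480 and 3154 bp. The number of fragments at its summit, worked out from its fold and p-value, was 121, 383 and 924. PTPRS, a receptor tyrosine phosphatase gene, had 40.1, 107 and 213, with 134, 309 and 931 fragments. Its summit was inside the gene, 31657 bp downstream of its listed start (siRNaseH1 peak at chr19:5308351-5309868). Divided by each list's inferred genome-wide coverage, a quantity called scaled coverage below, JUND stood at 94.8, 272 and 681 and PTPRS at 105, 219 and 686.

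At the other leading loci both knockdown values were also above siCtrl. ERF, an ETS-domain repressor gene, had fold enrichments of 16.9, 62.3 and 77.7 in siCtrl, siREXO4 and siRNaseH1. MIR23AHG, the host gene of the miR-23a, miR-27a and miR-24-2 hairpins, had 14.6, 60.04 and 72.1. HNRNPL had 14.1, 62.4 and 76.2. CIRBP had 12.0, 60.6 and 55.8, with the siREXO4 fold above that of siRNaseH1. On scaled coverage the order at CIRBP was the other way, at 30.6, 170 and 188, so the order of the knockdown lists there differed between the scales. At HNRNPL, scaled coverage was near equal in the knockdown lists (199 and 197). Summits lay close to a listed start, 85 bp downstream of it for ERF, 128 bp for an inner start of HNRNPL and 231 bp for CIRBP. A shared locus of RRAS and SCAF1 had 15.95, 33.1 and 61.9, and one of HOOK2 and JUNB, which encodes another AP-1 subunit, had 14.4, 32.2 and 45.2. MIDN, which encodes midnolin, had 7.21, 40.1 and 45.6. The kinase gene DAPK3 (7.78, 26.1 and 33.9), the HSP40 gene DNAJB1 (8.05, 34.4 and 31.7) and ZNF574 (6.43, 33.0 and 57.6) followed. At DNAJB1 too the order turned on scaled coverage, with 74.5 in siREXO4 and 115 in siRNaseH1.

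**Figure D5:**
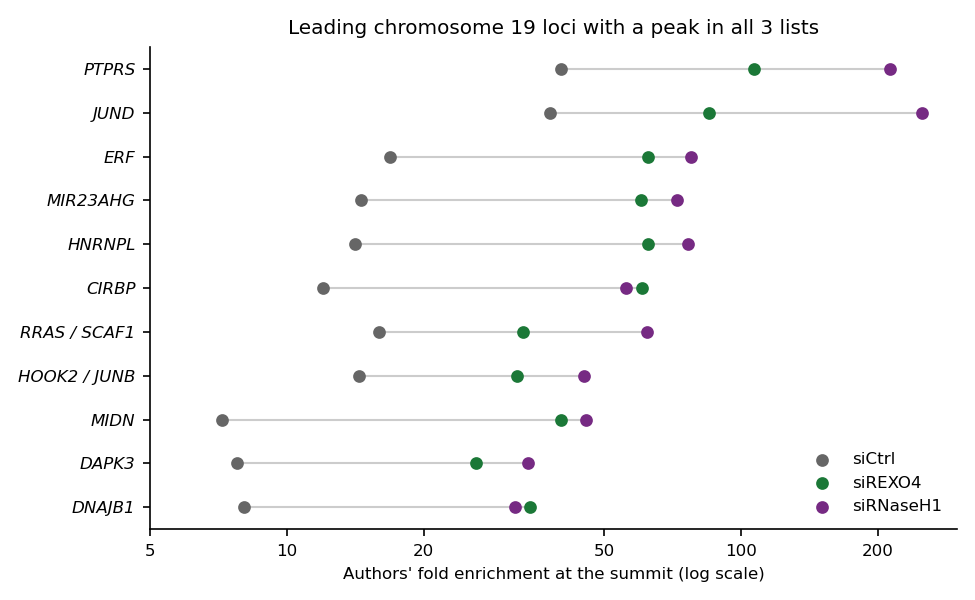
Fold enrichment at the summit (x axis, log scale, the authors' value within each list) for the 11 chromosome 19 loci with the best lowest rank over the 3 lists, 1 point per merged list. The siCtrl points run from 7.21 (MIDN) to 40.1 (PTPRS) and lie left of both knockdown points at each locus, while siREXO4 passes siRNaseH1 in fold at CIRBP and DNAJB1, where scaled coverage has the opposite order.

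Over the 120 siCtrl peaks with a counterpart in both other lists, scaled coverage was compared. The median ratio of siREXO4 to siCtrl was 1.36 (quartiles 0.906 to 2.73), and 81 of the 120 (67.5%) were above 1. For siRNaseH1 over siCtrl it was 2.48 (1.45 to 4.58), with 110 (91.7%) above 1. For siRNaseH1 over siREXO4 it was 1.53 at these loci and 1.27 at the 484 siREXO4 peaks shared with siRNaseH1 and absent from siCtrl. These loci are in each list because they passed its threshold, so the ratios describe them and are no measure of the whole chromosome.

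Loci in both knockdown lists without a siCtrl peak were led by genes of varied roles. RAB11B, a small GTPase gene of endosome recycling, had fold enrichments of 22.7 in siREXO4 and 23.5 in siRNaseH1. ZC3H4, a zinc finger gene whose product limits non-coding transcription, had 28.6 and 22.8. GPX4, the gene of the glutathione peroxidase that removes lipid peroxides, had 21.1 and 21.9. KMT5C, a histone H4 lysine methyltransferase gene, had 25.3 and 21. SERTAD3 (18.98 and 20.5), MYADM (16.02 and 25.1), KLF2, a Krüppel-like transcription factor gene (15.5 and 21.98), and CCDC9 (22.9 and 17.7) completed the 8 genes with the best lowest rank. RAB11B, CCDC9 and MYADM each held a siCtrl peak at another place in the gene or its flanks (4.40, 4.77 and 6.89). PPP2R1A, named above for the zinc finger windows, had 16.7 in siREXO4 and 5.14 in siRNaseH1. Summits at RAB11B, GPX4 and KLF2 lay 211, 216 and 306 bp downstream of the start. Over the whole chromosome 325 of 1410 protein-coding genes (23.05%) held a peak in both knockdown lists and none in siCtrl, against 18.8% elsewhere.

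Groups of genes with related roles were then counted, as a description and beside the share of all genes of the chromosome (12.3% in siCtrl, 40.9% in siREXO4 and 43.4% in siRNaseH1). All 10 early response genes held a siRNaseH1 peak, 9 a siREXO4 peak and 8 a siCtrl peak. Besides JUND, JUNB and MIDN, these included PPP1R15A, the GADD34 gene (10.3, 22.9 and 21.1), FOSB (4.87, 10.5 and 26.8) and ZFP36 (4.30, 17.3 and 23.3). KLF16 had a peak in siRNaseH1 alone (5.07). Of 13 ribosomal protein genes, 8 held a siCtrl, 10 a siREXO4 and 11 a siRNaseH1 peak. RPS16 had 8.77, 12.0 and 32.9, and RPS19 had 4.67, 13.2 and 28.2. At both the siRNaseH1 value was the highest. RPS9 held no peak in any list.

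Genes of RNA processing, transcription and DNA repair were counted in the same way. Of 21 genes of mRNA splicing and binding, 5 held a siCtrl, 16 a siREXO4 and 18 a siRNaseH1 peak, and 10 had one in both knockdown lists but not in siCtrl. PTBP1, a splicing repressor gene, had 11.1 in siREXO4 and 9.11 in siRNaseH1, and SF3A2, a gene of the U2 snRNP, had 8.09 and 19.3. The same peaks are counted for PLEKHJ1, the neighbour of SF3A2. Of 22 genes listed under transcription and chromatin, among them the kinase gene AKT2, 6, 20 and 18 held a peak. SMARCA4, the gene of a SWI/SNF ATPase, had 13.9 in siREXO4 and 15.5 in siRNaseH1, SIRT2, a deacetylase gene, had 13.4 and 11.9, and neither had a siCtrl peak. Of 10 genes listed as nucleolar or of ribosome biogenesis, 1, 6 and 9 held a peak. NOP53 had 13.8 and 19.4 and FBL, the fibrillarin gene, had 5.77, 9.14 and 14.9. This list also counts SBNO2, a transcriptional coregulator gene, whose highest siRNaseH1 peak (21.9) is that of its neighbour GPX4. Of 13 genes of DNA repair and replication, 2, 8 and 8 held a peak. POLD1, the DNA polymerase delta catalytic subunit gene, had 9.27 and 7.34 in the knockdown lists. RNASEH2A, which encodes the catalytic subunit of RNase H2, and XRCC1 held none in any list.

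Some genes held long or repeated stretches of signal. PPP1R15A, a gene of 3.64 kb, had 3728, 5472 and 6157 bp of peaks in the gene and its flanks. TPM4, a tropomyosin gene, held the most sequence in siRNaseH1, 12546 bp in 14 peaks, against 1240 bp in siCtrl and 4892 bp in siREXO4. NOP53 followed with 11697 bp in 9 peaks and MIDN with 9760 bp in 4. MAG, the myelin-associated glycoprotein gene, went the other way. It had a single siCtrl peak of 2557 bp, with a fold of 7.00, and 1994 bp in siREXO4 (5.53) and 1458 bp in siRNaseH1 (4.57).

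The leukocyte receptor region and other gene families of specialised tissues held few peaks. Of 43 such genes, 1 held a siCtrl (2.33%), 5 a siREXO4 (11.6%) and 5 a siRNaseH1 peak (11.6%), and 35 held none in any list. Over all protein-coding genes of the chromosome the shares were 12.3%, 40.9% and 43.4%, and 48.4% held none. The 43 genes were chosen as leukocyte receptor and silent families, so they are no neutral sample. They comprise olfactory receptor, pregnancy-specific glycoprotein, CEACAM, kallikrein, SIGLEC, LILR and KIR genes and others. Their highest folds were 5.71 at CYP4F2 in siCtrl and 7.97 at KLK8 in siRNaseH1, and several belong to families of near-identical copies, where reads may be split. In window 55 (chr19:54000001-55000000) the 41 protein-coding genes were met by 0, 3 and 4 peaks. The siREXO4 peaks were at OSCAR and NDUFA3 (3.82), MBOAT7 and TSEN34 (5.40) and LENG8 (6.23). RPS9 and the splicing factor gene PRPF31 are also in this window and held none. This region has alternate contigs in hg38, and the lists hold 1, 18 and 38 peaks on alternate contigs of chromosome 19, which were not counted above. Of 45 promoters in the window, 11 shared a run of 50 or more bases with another gene's promoter. Their part in the low number was not tested.

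MicroRNA hairpins were then set against the peaks. Of 130 hairpins of the chromosome, 3 lay under siCtrl, 7 under siREXO4 and 13 under siRNaseH1 peaks. The peaks of these lists covered 109, 588 and 848 kb of the chromosome's 58.6 Mb. MIR3188, beside JUND, and MIR4530 were covered in all 3 lists, and MIR23A and MIR27A in siRNaseH1 only. None of the 48 hairpins of window 54, most of them in the large primate-specific cluster, was covered in any list. That window held 3 siCtrl, 7 siREXO4 and 10 siRNaseH1 peaks.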

How the data were processed

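DNA-RNA hybrids were measured by DRIP-seq in U2OS cells, with 13 samples: 9 S9.6 libraries, 3 inputs and 1 IgG library. The authors merged the S9.6 libraries of each transfection and deposited 1 narrowPeak list for each. Tools named in the submitters' processing notes are MACS2 2.1.0.20150731, HISAT2 2.2.1, SAMtools 1.17, deepTools 3.5.1, Trim Galore 0.6.10 and Cufflinks, with the build hg38. The control library of the peak calls, the handling of duplicates and multiply mapped reads, and the library depths were not given in the sources used here. Among deposited columns, those used are a fold enrichment (a ratio) at each summit, a −log10 p, a −log10 q, and the deposited integer score was not used. Fragments and local background at each summit were recovered from the deposited fold and −log10 p as whole numbers within 0.001, which succeeded for all peaks of chromosome 19.

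Gene positions came from RefSeq (GRCh38.p14). Of the table's entries, 58 for chromosome 19 were dropped as placed on alternate contigs, which left 2641 genes, 1410 of them protein-coding. The table gives no exons, so exonic and intronic peaks were not separated, and strand was known only for the 1185 genes with a listed promoter. Zinc finger genes (265) were taken by symbol (ZNF, ZFP, ZSCAN, ZIM, ZIK or ZKSCAN and a number).

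With 1 merged list a group there are no replicates, so no test was made. Counts carry 95% exact Poisson intervals, their ratios exact intervals, and shares Wilson intervals. Genes were named by rank: in each list the 10 with the highest fold, the 8 with the best lowest rank among loci of all 3 lists and of both knockdown lists without siCtrl, the leader of each of the 5 densest windows and of the zinc finger windows, the 3 with the most bp, and up to 4 members of each gene list. Genes named beyond this, such as RNASEH2A, PRPF31, KLF16 and those of window 55, were chosen after their values were seen. Some genes that this rule names are not reported here. The members and gene lists were chosen with earlier results of these data known. Scripts (Python 3.11.15, NumPy 2.4.6, pandas 2.3.3, SciPy 1.17.1, Matplotlib 3.10.9) were tested on simulated data. Alternatives covered the threshold, list length, window size, class rule, overlap, flank and gene set.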

Additional observations from a re-analysis of the deposited data

How the results depend on the processing

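Of 66 alternative values for 20 results, 25 stayed and 41 moved out of the band set for them. None of the ratios or rank correlations reversed direction. The shares have no reference value, so a reversal could not be called for them. The band was the counting interval, or 0.1 on either side for the rank correlations. No paired analysis was possible because each group is 1 merged list, and for the same reason no replicate could be left out. A fold of at least 5 gave a density ratio to the other chromosomes of 2.30 for siCtrl and 3.06 for siRNaseH1, a siCtrl rank correlation with genes of 0.44, a gene-rich to zinc finger ratio of 4.21 for siREXO4, 89.6% and 92.5% of siREXO4 and siRNaseH1 peaks without a siCtrl peak, and 5.18%, 28.7% and 31.5% of genes with a siCtrl, siREXO4 and siRNaseH1 peak. Lists of equal length gave density ratios of 4.53 for siREXO4 and 3.89 for siRNaseH1, gene-rich to zinc finger ratios of 5.22 and 4.81, and 79.0% and 74.6% of peaks without a siCtrl peak. They also put 27.2% of siCtrl peaks in both knockdown lists, 57.2% of siREXO4 peaks in siRNaseH1 and 63.7% of siRNaseH1 peaks in siREXO4. With the full lists the shares between the knockdown lists were 62.1% and 43.0%, so their order turned. The order of the shares without a siCtrl peak, 85.8% and 89.6% with the full lists, turned as well. Windows of 500 kb gave gene-rich to zinc finger ratios of 8.78, 4.92 and 4.29 for siCtrl, siREXO4 and siRNaseH1, and windows of 2 Mb a siCtrl rank correlation of 0.66. A zinc finger share of 0.3 with gene-rich set at 40 genes gave 2.57 for siREXO4 and 2.40 for siRNaseH1. A gap of up to 500 bp raised sharing between the knockdown lists to 66.5% of siREXO4 and 47.7% of siRNaseH1 peaks. Summits near a boundary in siCtrl, siREXO4 and siRNaseH1 came to 34.6%, 46.0% and 36.8% within 1 kb, 69.1%, 77.6% and 76.0% within 5 kb, and 39.8%, 51.4% and 44.9% with protein-coding genes only. Genes with a peak came to 10%, 35.3% and 36.7% with no flank and to 15.04%, 46.5% and 49.3% with a flank of 5 kb. Where an alternative uses fewer peaks, a wider flank or fewer genes, its own construction moves the value; otherwise the cause was not tested. The depth of the libraries is unknown, and a peak missing from a shorter list may be a matter of its threshold.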
